A study of Mus musculus with 8 samples.

Results

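The SOCS family comprises the cytokine-inducible inhibitor CIS, encoded by Cish, and the suppressors of cytokine signalling encoded by Socs1 to Socs7. Every probe set that the array annotation pairs with exactly 1 gene symbol, and with one of these 8 symbols, was taken, which gave 24 probe sets of 45037 in the table and 8 genes of 18193. Socs2 had 6 probe sets, Socs4 and Socs7 had 4 each, Socs3 and Socs6 had 3 each, Socs5 had 2, and Cish and Socs1 had 1 each. Cytokine receptors signal through JAK kinases, which phosphorylate STAT transcription factors, and several SOCS genes are transcribed in response to those STATs. The proteins then bind the receptor or the kinase through an SH2 domain, and through the SOCS box they recruit a ubiquitin ligase, so the pathway limits itself. In myeloid cells CIS and SOCS2 are classical products of STAT5 signalling, such as that from the interleukin-3 (IL-3) receptor, and SOCS3 is the main brake on the receptor for G-CSF, granulocyte colony-stimulating factor.

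The cells were 32Dcl3, mouse myeloid progenitors that depend on IL-3 for growth and turn into neutrophils when given G-CSF. One culture carried the empty retroviral vector pMYs-IG (mock) and the other carried pMYs-FLAG-ASXL1-MT-IG, which adds a FLAG-tagged mutant form of the chromatin regulator ASXL1 (ASXL1-MT) to a cell that still has its own Asxl1 gene. Each was profiled in IL-3, the 0 h point, and after 2, 6 and 24 h of G-CSF, on 8 Affymetrix arrays with 1 array per condition. Not stated in the sources used here are the species of the transgene, whether a pool or 1 clone of transduced cells was used, whether IL-3 was removed at the switch to G-CSF, and whether each time point had its own culture.

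Values are log2 expression of a probe set minus its own median over the 8 arrays, so 0 is the middle of that probe set and no level can be set against that of another probe set. Changes are log2 differences ± standard error from 1 limma fit of all 8 arrays on time point and vector, with 2 arrays on each side of a time comparison and 4 on each side of the vector comparison. A change was called where the false discovery rate (FDR, Benjamini-Hochberg) was under 0.05 over 29680 probe sets that were bright enough to test, and 22 of the 24 SOCS probe sets were among them. The 2 cultures stand in for replicates of a time point, and the 4 time points for replicates of a vector. The p-values may therefore measure only technical spread, and the number of arrays limits the precision. The level before centring could be estimated only as a band, and 13 SOCS probe sets lay in the band of 8 or more on the log2 scale and 11 in the band of 4 to 8, where values scatter more (median SD over the arrays of 0.26 and 0.76 for all probe sets of the 2 bands).

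The markers of the labelled cell were present. The 6 immature myeloid genes Mpo, Elane, Prtn3, Ctsg, Myb and Spi1 of 8 listed were in the band of 8 or more, while Kit was under 4 and Cd34 was too dim to test. The lymphoid genes Cd3e, Cd79a, Rag1 and Cd4, the mast cell receptor chain Fcer1a, the complement gene C1qa and the erythroid enzyme Alas2 were under 4. Each of these other lists also held genes in the band of 8 or more. They were 4 of 10 mast cell, basophil and eosinophil genes on the array (Epx, Mcpt8, Cpa3 and Gata2) and 2 of 6 monocyte genes (Csf1r and Adgre1). So were 2 of 6 erythroid genes (Gata1 and Tfrc) and 1 of 6 lymphoid genes (Ptprcap). Markers of maturing neutrophils rose at 24 h in 7 of 8 tested genes, with medians between -0.75 and -0.04 on the 2 IL-3 arrays and 1.48 and 1.68 on the 2 arrays at 24 h. Genes of mast cells, basophils and eosinophils also moved, with 5 of 9 tested rising and 1 falling at 24 h, and the list median went from -0.50 and -0.28 in IL-3 to 0.69 and 0.83. Of the other lists, 5 of 6 immature myeloid and 3 of 4 monocyte genes rose, 1 erythroid gene rose and 2 fell of 4, and 1 lymphoid gene fell of 2. Over all genes, 1 probe set each, 12.2% were called higher and 9.84% lower at 24 h. The part of these shifts in the SOCS results was not tested, and in such bulk RNA a change in the share of cells of a type and a change in RNA per cell cannot be told apart.

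The family split into a member that was high in IL-3, a member that was high late in G-CSF, and members with smaller changes or no called change. Cish was 4.45-fold lower at 2 h, which did not pass the test, and 5.29-fold lower at 6 h of G-CSF than in IL-3, Socs3 was 7.98- to 8.95-fold higher at 24 h (4.59- to 6.0-fold after quantile normalization again), Socs2 and Socs5 were lower at 24 h by less, and Socs4, Socs6 and Socs7 had no called change. Socs1 was measured too poorly to place.

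**Figure D1:**
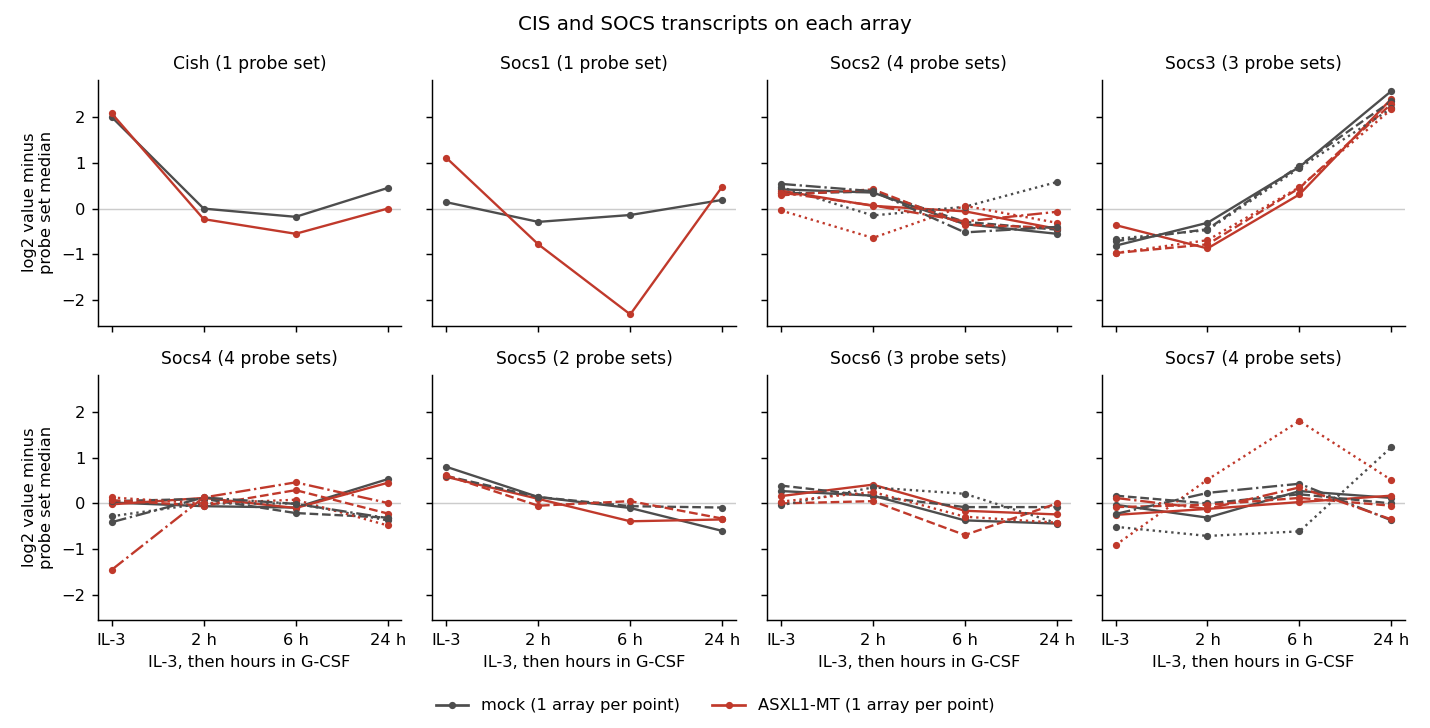
Expression of the 22 tested probe sets of the 8 genes on each array, as the log2 value minus the probe set median (vertical axis) in IL-3 and after 2, 6 and 24 h of G-CSF (horizontal axis, time points equally spaced and not to scale). Each point is 1 array, grey for mock and red for ASXL1-MT, and line styles separate the probe sets of a gene. Cish drops from 2.00 and 2.08 in IL-3 to 0.00 and -0.23 at 2 h, and the Socs3 probe sets climb to between 2.17 and 2.57 at 24 h.

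CIS binds phosphorylated cytokine receptors that activate STAT5 and competes with it for them. The RefSeq promoter table, on build GRCm38.p6, held 4 of the 8 genes (Cish, Socs1, Socs3 and Socs4), each as 300 bases from 250 before to 50 after the annotated start. These windows were searched for TTCNNNGAA, the palindromic core that STAT factors recognise, which reads the same on both strands. Cish had 2 matches, the only pair in the 4 windows. Its stretch at chr9:107296654-107296683 on the plus strand is shown, with the matches in capitals at positions 1 to 9 and 12 to 20 counted from the start.
Cish: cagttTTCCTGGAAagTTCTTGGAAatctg
A match was found in 2726 of the 32851 promoters of the table (8.3%), and 150 (0.457%) held 2 or more. A match describes the letters only and does not show that a factor binds there.

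Cish transcript (probe set 1448724_at, level band 8 or more) was highest in IL-3 in both cultures. In the mock culture it stood at 2.00 in IL-3, 0.00 at 2 h, -0.18 at 6 h and 0.45 at 24 h of G-CSF. In the ASXL1-MT culture the values were 2.08, -0.23, -0.55 and 0.00. The 2 IL-3 arrays lay above all 6 G-CSF arrays with no overlap, and within G-CSF each culture had its lowest value at 6 h. How many of all tested probe sets separate this way, or as given below for other members, was not counted. Separation is common, since at 2 h alone both arrays lay outside both IL-3 arrays for 39.3% of tested probe sets.

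At 2 h the fitted Cish difference from IL-3 was -2.15 ± 0.17, a level 4.45-fold lower, with a 95% interval from -2.60 to -1.71. The adjusted p was 0.189 and the unadjusted p 0.000147, so it was not called. No probe set was called by limma at 2 h (0.0% of 29680), where 2388 had an unadjusted p under 0.05 and the smallest adjusted p was 0.0806. By size alone, with no test, Cish was 4.00-fold lower at 2 h in the mock culture and 4.96-fold lower in the ASXL1-MT culture. It was the only SOCS probe set of 22 to move by at least 1 in both, which 2.62% of all tested probe sets did (1.13% downward). Ranked from the lowest, its fitted difference at 2 h was number 259 of 29680.

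At 6 h Cish fell by 2.40 ± 0.17 (5.29-fold lower, adjusted p = 0.0223 with limma), and at 24 h it fell by 1.82 ± 0.17 (3.52-fold lower, adjusted p = 0.013 with limma). Between 6 and 24 h the difference was 0.59 ± 0.17 upward, 0.62 in the mock and 0.55 in the ASXL1-MT culture, with an adjusted p of 0.145. This step was upward in both cultures and did not pass the test. The transcript remained below its IL-3 value at 24 h, by 1.55 in the mock and 2.08 in the ASXL1-MT culture. With a stricter filter on dim probe sets, or with a variance prior that follows the level, the 2 h difference was called too (adjusted p = 0.0213 and 0.0426 with limma). Without the filter none of the Cish differences was called, with adjusted p of 0.298 at 2 h, 0.0875 at 6 h and 0.052 at 24 h.

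SOCS3 binds JAK kinases and the phosphorylated G-CSF and gp130 receptors and blocks the kinase. Its promoter window held 1 match to the motif, at positions -154 to -146, the only other match in the 4 windows searched. The 100 bases around it are shown, from chr11:117969457-117969556 on the minus strand, written in the direction of the gene with the match in capitals.
Socs3: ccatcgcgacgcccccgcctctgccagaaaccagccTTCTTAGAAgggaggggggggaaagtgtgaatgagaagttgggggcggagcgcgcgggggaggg
The windows of Socs1 and Socs4 did not hold these letters, which says nothing of other sites. Socs2, Socs5, Socs6 and Socs7 were not in the table.

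Socs3 transcript was low in IL-3 and at 2 h, intermediate at 6 h and highest at 24 h on each of its 3 probe sets. On 1416576_at the mock culture read -0.66, -0.47, 0.89 and 2.19 over IL-3, 2, 6 and 24 h, and the ASXL1-MT culture -0.97, -0.69, 0.47 and 2.17. On 1456212_x_at the mock culture read -0.71, -0.45, 0.94 and 2.35, and the ASXL1-MT culture -0.97, -0.78, 0.45 and 2.29. On 1455899_x_at the mock culture read -0.81, -0.31, 0.91 and 2.57, and the ASXL1-MT culture -0.36, -0.87, 0.31 and 2.40. On all 3 the arrays at 24 h lay above those at 6 h, and those at 6 h above those in IL-3 and at 2 h, with no overlap. The share of all tested probe sets with this order was not counted. The arrays in IL-3 and at 2 h overlapped on all 3 Socs3 sets, and on 1455899_x_at the ASXL1-MT culture was higher in IL-3 than at 2 h. The suffix x marks probe sets whose probes may also match other transcripts, and the 3 sets interrogate 1 gene, so they are not independent.

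At 2 h the 3 Socs3 differences from IL-3 were 0.24 ± 0.13, 0.22 ± 0.14 and 0.00 ± 0.31 for 1416576_at, 1456212_x_at and 1455899_x_at, with intervals from -0.13 to 0.60, -0.15 to 0.60 and -0.84 to 0.83, and none was called. No tested probe set was called at 2 h, Cish included, so the missing call does not separate Socs3 from Cish. By size, Cish already read low on both arrays at that time. At 6 h 1416576_at rose by 1.49 ± 0.13 (2.81-fold) and 1456212_x_at by 1.54 ± 0.14 (2.90-fold), both at an adjusted p of 0.0224 with limma, while 1455899_x_at differed by 1.20 ± 0.31 and was not called (adjusted p = 0.0872). The step from 2 to 6 h passed on the same pair of probe sets (1.26 ± 0.13 and 1.31 ± 0.14, adjusted p = 0.0328 each).

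At 24 h all 3 probe sets rose above IL-3. The differences were 3.00 ± 0.13 on 1416576_at (7.98-fold, adjusted p = 0.00954), 3.16 ± 0.14 on 1456212_x_at (8.95-fold, adjusted p = 0.00954) and 3.07 ± 0.31 on 1455899_x_at (8.40-fold, adjusted p = 0.0139), with limma. They ranked 277, 211 and 240 from the highest of 29680 tested probe sets. Quantile normalization was also run again on the deposited values with each probe set's estimated level added back. It kept the 3 calls and made the rises smaller, and these sizes rest on the level estimates. The rises were 2.59 on 1416576_at (6.0-fold), 2.29 on 1456212_x_at (4.89-fold) and 2.20 on 1455899_x_at (4.59-fold). The call on 1455899_x_at was lost without the filter on dim probe sets (adjusted p = 0.052), where the other sets kept theirs (adjusted p = 0.0431 each). From 6 to 24 h the differences were 1.51, 1.63 and 1.87 with adjusted p of 0.0525, 0.0502 and 0.0772, so none passed. Only 0.293% of tested probe sets were called between 6 and 24 h (0.226% higher and 0.0674% lower), and the Socs3 step depended on the processing. With the stricter filter on dim probe sets all 3 were called (adjusted p from 0.00283 to 0.00974), without the filter none was (adjusted p from 0.146 to 0.203), and after quantile normalization again the step was 1.28, 0.60 and 0.87 and not called (adjusted p of 0.114, 0.226 and 0.293).

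**Figure D2:**
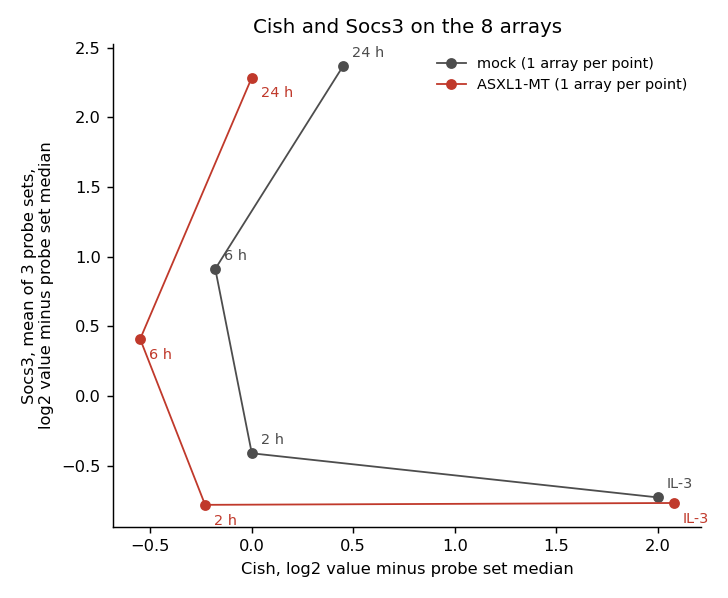
Cish (horizontal axis) against the mean of the 3 Socs3 probe sets (vertical axis), both as log2 value minus probe set median, with 1 point per array and lines joining the time points of a culture in order (grey mock, red ASXL1-MT). From IL-3 to 2 h both cultures move along the Cish axis, with Socs3 going from -0.73 to -0.41 in mock and from -0.77 to -0.78 in ASXL1-MT, and from 2 h on they move mainly along the Socs3 axis to 2.37 and 2.29.

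SOCS2 binds the growth hormone and related receptors and is another product of STAT5 signalling. Of its 2 bright probe sets, 1449109_at read 0.42, 0.35, -0.34 and -0.55 in the mock culture over IL-3, 2, 6 and 24 h, and 0.39, 0.06, -0.06 and -0.44 in the ASXL1-MT culture. The set 1418507_s_at read 0.33, 0.37, -0.29 and -0.46 in mock and 0.29, 0.42, -0.35 and -0.42 in ASXL1-MT. On both sets the arrays in IL-3 and at 2 h were above those at 6 and 24 h, with no overlap. The share of all tested probe sets that separate this way was not counted. Against IL-3 alone, both arrays lay outside both IL-3 arrays for 60.7% of tested probe sets at 6 h and 64.0% at 24 h. At 2 h, when Cish already read low, the Socs2 differences from IL-3 were -0.20 ± 0.17 and 0.09 ± 0.09, with intervals from -0.65 to 0.26 and from -0.17 to 0.34.

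At 24 h Socs2 fell by 0.90 ± 0.17 on 1449109_at (1.86-fold, adjusted p = 0.0353) and by 0.75 ± 0.09 on 1418507_s_at (1.68-fold, adjusted p = 0.0179), with limma. At 6 h 1418507_s_at was already lower than in IL-3 by 0.63 ± 0.09 (adjusted p = 0.0364) and lower than at 2 h by 0.72 ± 0.09 (adjusted p = 0.0379), while 1449109_at was not called against IL-3 (adjusted p = 0.101). A dimmer set, 1446085_at, differed by -0.85 ± 0.21 at 6 h and -0.68 ± 0.21 at 24 h without passing (adjusted p = 0.082 and 0.0983), and it followed 1449109_at over the 8 arrays (Pearson r = 0.88). The other tested set, 1442586_at, did not follow it (r = -0.10) and differed by -0.08 ± 0.24 at 24 h. Probe sets of 1 gene can read different transcript ends or isoforms, and which ends these sets read was not examined here.

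SOCS5 is a member with a long amino-terminal region, known as a regulator of epidermal growth factor receptor and interleukin-4 signalling. On 1423350_at the mock culture read 0.80, 0.14, -0.10 and -0.60 over the 4 time points and the ASXL1-MT culture 0.58, 0.10, -0.39 and -0.35. On 1423349_at the values were 0.60, 0.14, -0.06 and -0.09 in mock and 0.61, -0.05, 0.05 and -0.33 in ASXL1-MT. As with Cish, both IL-3 arrays lay above all 6 G-CSF arrays on both probe sets, a separation whose share over all tested probe sets was not counted.

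Socs5 fell at 24 h by 1.17 ± 0.17 on 1423350_at (2.24-fold, adjusted p = 0.0225) and by 0.82 ± 0.13 on 1423349_at (1.76-fold, adjusted p = 0.0264), with limma. At 6 h 1423350_at had fallen by 0.94 ± 0.17 (adjusted p = 0.0472), and 1423349_at differed by -0.61 ± 0.13 (adjusted p = 0.063). The differences at 2 h were -0.57 ± 0.17 and -0.56 ± 0.13 with adjusted p of 0.573 and 0.493, so the timing of the decline within the first 6 h was not settled by the test.

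SOCS1 binds JAK kinases directly and is a main brake on interferon and many other cytokine signals. Its single probe set, 1450446_a_at, was in the level band of 4 to 8. The mock culture read 0.14, -0.29, -0.14 and 0.19 over IL-3, 2, 6 and 24 h, and the ASXL1-MT culture 1.11, -0.78, -2.31 and 0.48. The cultures differed in size, since the largest distance between time points was 0.48 in mock and 3.43 in ASXL1-MT. Both were below their IL-3 value at 2 and 6 h, with the lowest value at 2 h in mock and at 6 h in ASXL1-MT. The fitted differences from IL-3 had a standard error of 0.82, and the 95% interval at 24 h ran from -2.51 to 1.93, so a change as large as that of Cish was not detectable for Socs1 on these arrays.

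SOCS4 is the close relative of SOCS5, and its 4 probe sets did not move together. The set 1455142_at read 0.02, -0.06, -0.09 and 0.53 in mock and -0.02, 0.12, -0.10 and 0.45 in ASXL1-MT, so that both arrays at 24 h were above the other 6. The share of all tested probe sets that do so was not counted. The difference of 1455142_at at 24 h was 0.49 ± 0.11 and missed the threshold (adjusted p = 0.0519 with limma). The sets 1421273_at and 1421275_s_at went the other way at 24 h, at -0.32 ± 0.19 and -0.35 ± 0.16, also not called, and correlated with 1455142_at at r = -0.73 and -0.84 over the 8 arrays. The fourth, 1421274_at, was dim and differed by 0.78 ± 0.42, with -1.45 on the ASXL1-MT array in IL-3 as its lowest value. No direction can be given for Socs4 from these sets.

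SOCS6 and SOCS7 are relatives that bind other signalling proteins, including insulin receptor substrates. The Socs6 set 1450129_a_at read 0.27, 0.17, -0.37 and -0.44 in mock and 0.16, 0.41, -0.16 and -0.24 in ASXL1-MT, with the arrays in IL-3 and at 2 h above the later ones. The share of all tested probe sets that separate this way was not counted. The difference of 1450129_a_at at 24 h was -0.55 ± 0.13, which just missed the threshold and was not called (adjusted p = 0.0577 with limma). The other Socs6 sets, 1435492_at and 1452764_at, differed by -0.24 ± 0.20 and -0.43 ± 0.18 at 24 h, in the same direction and not called.

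Of the Socs7 sets, 1434834_at and 1455402_at were in the bright band and stayed between -0.31 and 0.27 on all 8 arrays. Their differences at 24 h were 0.29 ± 0.15 and -0.07 ± 0.11, with intervals from -0.13 to 0.71 and from -0.36 to 0.23, so changes of the size seen for Cish or Socs3 lie outside both intervals. The dim set 1438492_at ranged from -0.91 to 1.80 and differed by 1.585 ± 0.88 at 24 h (adjusted p = 0.281 with limma). Its difference was 1.745 in the mock and 1.425 in the ASXL1-MT culture. At 24 h 9.45% of all tested probe sets moved by at least 1 in both cultures (6.74% upward). The set 1420766_at differed by -0.31 ± 0.19 at 24 h. None of the 4 was called in any comparison.

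**Figure D3:**
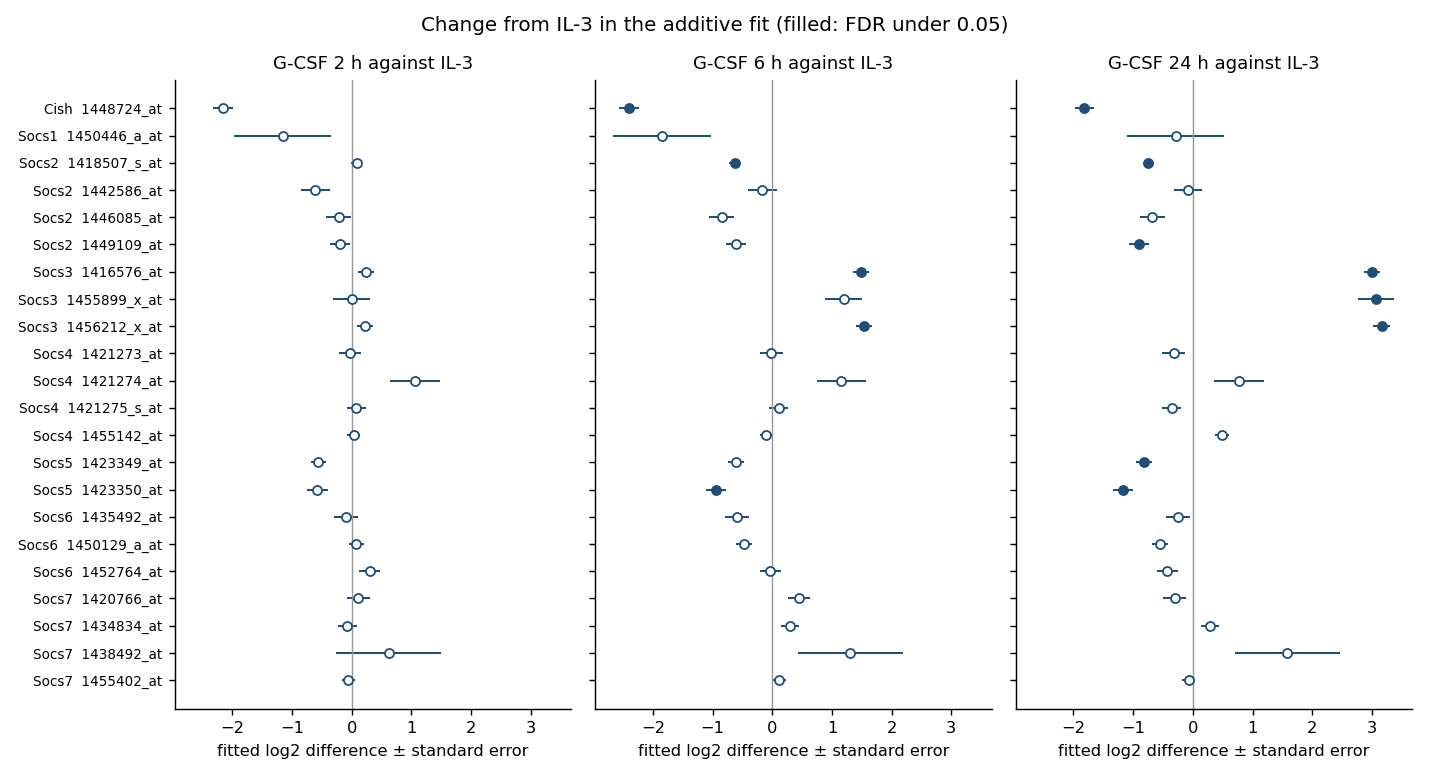
Fitted log2 difference from IL-3 (horizontal axis, with bars of 1 standard error) for each of the 22 tested probe sets (rows) at 2, 6 and 24 h of G-CSF (panels). Filled points passed the FDR of 0.05: none at 2 h, 5 at 6 h and 8 at 24 h, which are the 3 Socs3 sets on the right and sets of Cish, Socs2 and Socs5 on the left.

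Over the family, 5 of 22 tested probe sets were called at 6 h, 2 higher (Socs3) and 3 lower (Cish, Socs2 and Socs5), where 10.3% of all tested probe sets were called, 5.72% higher and 4.57% lower. At 24 h 8 of 22 were called, 3 higher (Socs3) and 5 lower (Cish, 2 of Socs2 and 2 of Socs5), against a background of 19.5%, 11.5% higher and 8.07% lower. From 2 to 6 h 3 were called, 2 of Socs3 higher and 1 of Socs2 lower, where the background was 7.05% (3.96% higher and 3.09% lower). The median difference of the 22 from IL-3 was -0.02, -0.07 and -0.30 at 2, 6 and 24 h, and that of all tested probe sets 0.01, 0.10 and 0.12. Arrays of the 2 groups did not overlap for 9, 16 and 19 of the 22, shares to be read against 39.3%, 60.7% and 64.0% of all tested probe sets. The comparisons with IL-3 share the same 2 IL-3 arrays.

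These calls rest on few arrays and on the filter. With all 45037 probe sets tested, 14 of the 16 SOCS calls were lost (adjusted p from 0.052 to 0.135), and the 24 h calls of 1416576_at and 1456212_x_at of Socs3 were kept. Leaving out any 1 of the 8 arrays ended all 5 calls at 6 h and all 3 from 2 to 6 h (adjusted p from 0.0748 to 0.208 and from 0.0982 to 0.183), with every fitted direction kept. At 24 h Cish and the 3 Socs3 sets kept their calls in the 4 fits that lacked an array of 2 or 6 h and lost them without any array in IL-3 or at 24 h (adjusted p up to 0.098), and the Socs2 and Socs5 sets lost theirs in all 8 fits (adjusted p from 0.0508 to 0.168).

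The 2 cultures were compared next, which asks whether mutant ASXL1 alters these genes. No SOCS probe set was called between ASXL1-MT and mock over the 4 time points, and none of all tested probe sets was (0.0%, with 1762 at an unadjusted p under 0.05 in limma, 2 of them SOCS sets). For Cish the ASXL1-MT minus mock difference was 0.08 in IL-3, -0.23 at 2 h, -0.38 at 6 h and -0.45 at 24 h, with a fitted value of -0.24 ± 0.12 and a 95% interval from -0.56 to 0.08 (adjusted p = 0.853). Cish was thus lower in the ASXL1-MT culture at the 3 times in G-CSF and not in IL-3, by less than the fit could resolve.

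For Socs3 the fitted difference between the cultures was -0.24 ± 0.10 on 1416576_at, -0.28 ± 0.10 on 1456212_x_at and -0.22 ± 0.22 on 1455899_x_at. On the first and the second the ASXL1-MT array was lower at all 4 time points, by 0.22 to 0.42 from IL-3 to 6 h and by 0.02 at 24 h on 1416576_at, and no adjusted p was under 0.832. On 1455899_x_at it was higher in IL-3 by 0.46 and lower at the later times. The intervals, from -0.50 to 0.02, from -0.55 to -0.02 and from -0.81 to 0.37, do not reach 1 in either direction. They rest on the spread over time points and not on independent cultures. Besides these, the probe set lower in ASXL1-MT at all 4 times was 1455402_at of Socs7, at -0.10 ± 0.08, and no tested SOCS set was higher at all 4. The share of all tested probe sets with the same direction at all 4 times was not counted, here and for the sets given below. A shared direction is therefore a description only.

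Over the 88 differences of the 22 tested sets at the 4 time points, 4 (4.5%) were 1 or larger in size, against 11.9% of those of all tested probe sets, and the median size was 0.22 in both. The 4 belonged to dim sets: 1450446_a_at of Socs1 at 6 h (-2.18), 1421274_at of Socs4 in IL-3 (-1.04), and 1438492_at of Socs7 at 2 h (1.24) and 6 h (2.41). The 13 bright sets stayed between -0.61 and 0.51. The effect of ASXL1-MT at 24 h against that at the other time points was called for none of the 22 and for 0.0% of all tested probe sets (1762 at an unadjusted p under 0.05, no SOCS set among them).

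The 2 probe sets too dim to test were both of Socs2. The set 1438470_at read 0.61, -0.02, 0.02 and 0.57 in mock and 1.23, -0.09, -1.78 and -0.38 in ASXL1-MT. The set 1441476_at read -0.56, -0.70, -0.98 and -0.33 in mock and 1.09, 0.58, 0.33 and 1.03 in ASXL1-MT, so the 4 ASXL1-MT arrays lay above the 4 mock arrays, by 1.29 to 1.65 at each time. In a fit without the filter this difference was 1.40 ± 0.12 with an adjusted p of 0.541. The brighter Socs2 sets did not show it, since 1418507_s_at differed between the cultures by -0.05 to 0.05 and 1449109_at by -0.29 to 0.28.

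**Figure D4:**
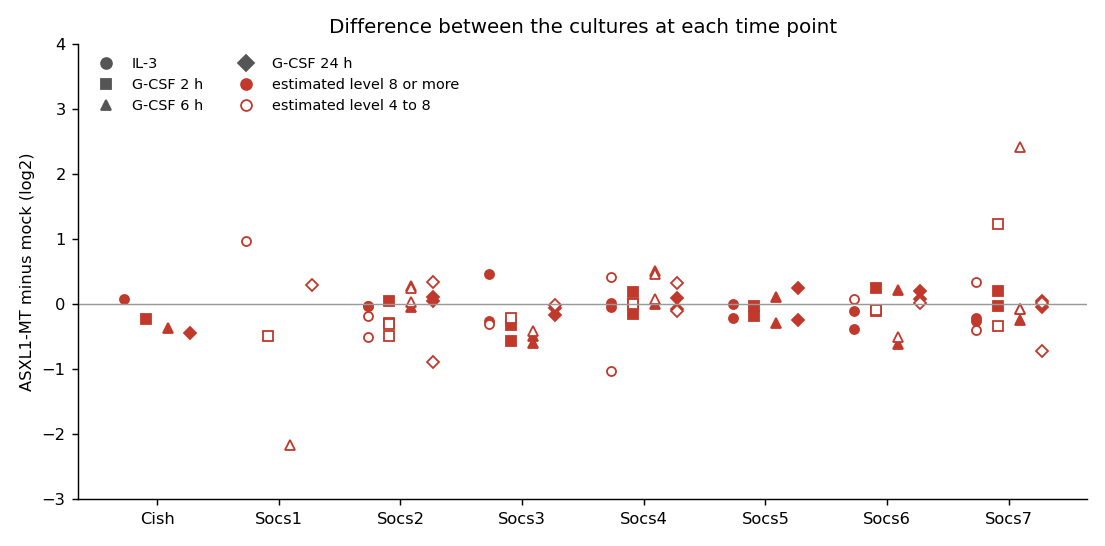
ASXL1-MT minus mock log2 difference (vertical axis) for the tested probe sets of each gene (horizontal axis), with marker shapes for the 4 time points and filled markers for probe sets in the level band of 8 or more. Filled points stay between -0.61 and 0.51, and the 4 points at 1 or more in size, of Socs1, Socs4 and Socs7, are all open.

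The targeted gene could not check the labels. Of 3 Asxl1 probe sets, 1434561_at and 1435077_at were lower in ASXL1-MT at all 4 time points (-0.47 to -0.27 and -0.08 to -0.01) and 1458380_at was higher (0.16 to 0.99), and their probes may lie outside the transgene.

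SOCS-box proteins act as part of a ubiquitin ligase with elongins B and C (Elob, Eloc), a cullin and a RING protein. A list of genes for elongin and cullin ligases, not all of them partners of SOCS proteins, gave 9 tested genes, each read by 1 probe set. Only Cul2, a cullin scaffold, was called at 24 h, lower by 0.62 ± 0.10 (adjusted p = 0.0257 with limma), and none was called at 2 or 6 h. Whether Cul2 serves SOCS proteins in these cells was not tested. Per gene the background was 22.1% called at 24 h (12.2% higher and 9.84% lower) and 11.9% at 6 h (6.7% higher and 5.17% lower). The conjugating enzyme Ube2f was the next lowest at 24 h (-0.54 ± 0.14, adjusted p = 0.0691). The highest values were those of Eloc (0.17 ± 0.11) and of Nedd8, the modifier that activates cullins (-0.16 ± 0.10), neither called.

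Of 20 genes for other brakes on the pathway, 4 rose and 2 fell at 6 h, and 3 rose and 3 fell at 24 h. The background per gene was 6.7% higher and 5.17% lower at 6 h. At 24 h it was 12.2% higher and 9.84% lower, so the 24 h count lies near it. The receptor phosphatase CD45 (Ptprc) rose by 1.36 ± 0.12 and the STAT3 inhibitor Pias3 by 1.02 ± 0.13, while the ERK pathway inhibitor Spred2 fell by 0.73 ± 0.09. Spred1 differed by -0.92 ± 0.30 without passing (adjusted p = 0.114), and at 2 h no gene of this list was called, with Dok2 at -0.46 ± 0.15 the lowest and Pias3 at 0.34 ± 0.13 the highest.

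SOCS proteins restrain the JAK kinases and the STAT factors these activate. Of 10 JAK and STAT genes tested, 3 rose at 6 h and 6 at 24 h, and none fell, with a median of 0.72 at 24 h beside 0.09 for all genes. Of all genes, 6.7% were called higher and 5.17% lower at 6 h, and 12.2% and 9.84% at 24 h. Jak3, the kinase of the common gamma chain, rose by 2.12 ± 0.17 at 24 h (adjusted p = 0.0121) and Stat3 by 1.99 ± 0.10 (adjusted p = 0.00967). At 2 h Stat3 was already 0.79 ± 0.10 higher, not called (adjusted p = 0.349), as was Stat2 (0.95 ± 0.36). The lowest values at 24 h were those of Stat4 (-0.75 ± 0.25) and Jak1 (0.17 ± 0.12), and at 2 h those of Stat6 (-0.24 ± 0.14) and Jak1 (-0.21 ± 0.12), none called.

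Of 16 cytokine receptor chains tested, 6 rose and 1 fell at 6 h, and 12 rose and none fell at 24 h, with a median of 1.25. Among all genes 6.7% rose and 5.17% fell at 6 h. At 24 h 12.2% rose and 9.84% fell, with a median of 0.09. The interleukin-6 receptor chain Il6ra rose by 3.20 ± 0.53 and the interferon gamma receptor chain Ifngr1 by 2.23 ± 0.12. The shared chain gp130 (Il6st), a partner of SOCS3, was at 0.02 ± 0.54 and Ghr, a partner of SOCS2, at 0.31 ± 0.91, both dim. At 2 h none was called, and Il6ra (1.48 ± 0.53), Osmr (2.09 ± 2.14), Ghr (-0.99 ± 0.91) and Il6st (-0.89 ± 0.54) had the largest differences.

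Other known targets of STAT5 or IL-3 moved in both directions. Of 22 such genes tested, the SOCS members left out, 4 rose and 7 fell at 6 h, and 10 rose and 5 fell at 24 h. The background per gene was 6.7% higher and 5.17% lower at 6 h, and 12.2% and 9.84% at 24 h. The ERK phosphatase Dusp6 was at -2.62 ± 0.11 and Myc at -1.93 ± 0.10 at 2 h, differences of the size of that of Cish and, like it, not called (adjusted p = 0.0886 and 0.111), while Bcl6 (0.65 ± 0.27) and Pim2 (0.62 ± 0.11) were the highest. At 24 h the survival gene Bcl2 fell by 1.33 ± 0.10 and cyclin Ccnd2 by 1.24 ± 0.10, whereas the interleukin-2 receptor chain Il2ra rose by 2.75 ± 0.20 and Id2, an inhibitor of helix-loop-helix factors, by 2.64 ± 0.22.

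Of 19 STAT3 or G-CSF targets tested, 7 rose and 2 fell at 6 h, and 15 rose and none fell at 24 h, with a median of 1.65. Among all genes 6.7% rose and 5.17% fell at 6 h. At 24 h 12.2% rose and 9.84% fell, with a median of 0.09. The granule glycoprotein Lrg1 rose by 5.25 ± 0.24 and haptoglobin (Hp) by 4.92 ± 0.12, both larger than the rise of Socs3. Fcgr1 (-0.46 ± 0.16) and Ifitm3 (0.39 ± 0.09) were the lowest and not called. At 2 h none was called, with Cxcr2 (0.75 ± 0.44) and Lrg1 (0.59 ± 0.24) highest and Cebpb (-0.57 ± 0.15) and Il1rn (-0.41 ± 0.55) lowest. No tested probe set of any gene was called then, so the missing calls say nothing of the timing of Socs3 or of this list. The lists were counted without a set test, and some genes are in more than 1 list. All of the lists were chosen with earlier results of these data known. Their counts beside the background are therefore a description and not a test.

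The genes whose pattern was most like that of each member were taken by Pearson correlation over the 8 arrays, which share 4 time points and 2 cultures, and are given as a description. For Cish they were Lpgat1 (r = 0.977), Pop7 (0.961) and Lrp12 (0.953), and for Socs3 Aldoa (0.994), Man2b1 (0.994) and S100a1 (0.993). For Socs2 they were Slc20a2 (0.991), Xpo7 (0.990) and Srrm1 (0.985), and for Socs5 Phlda1 (0.982), Tnk2 (0.971) and Sapcd2 (0.967). For Socs1 they were Gtf3c2 (0.969), Prss39 (0.968) and Pdxp (0.968). For 1421273_at of Socs4 they were Pdrg1 (0.973), Auh (0.956) and Tysnd1 (0.947). The other bright Socs4 set, 1455142_at, ran opposite to 1421273_at (r = -0.73), so these genes describe that set and not Socs4 as a whole.

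For Socs6 the nearest were Mir155hg (0.968), Gna13 (0.968) and Det1 (0.954), and for Socs7 Cacfd1 (0.988), Numb (0.974) and Ccdc69 (0.972). Correlations this high are found for probe sets that hardly moved, such as 1434834_at of Socs7, as well as for Cish and Socs3. The best of 29680 probe sets were taken over 8 arrays. Within the family Cish correlated with 1423349_at of Socs5 at 0.85, with 1449109_at of Socs2 at 0.56 and with 1455899_x_at of Socs3 at -0.31, and those sets of Socs2 and Socs3 correlated at -0.90. On these sets the patterns of Cish and Socs3 were thus not mirror images, while those of Socs2 and Socs3 ran in opposite directions. The ranges in mock and ASXL1-MT were 0.97 and 0.82 for that Socs2 set, and 3.38 and 3.27 for that Socs3 set. The Socs2 set 1442586_at did not follow 1449109_at (r = -0.10).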

How the data were processed

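RNA from 8 conditions was hybridised to Affymetrix mouse arrays, 1 array per condition. Intensities were captured with MAS 5.0, per the labels, and RMA is named in the submitters' processing notes without a version. The deposited values were read as log2 expression from which each probe set's median over the 8 arrays had been subtracted (all medians within 5e-07 of 0). No source used here gives the centring, log base or scaling. A natural log would make every log2 difference 1.44 times larger.

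Levels before centring were estimated from the rounding step of the deposited numbers. In a check on 8000 simulated probe sets this missed the level by a median of 0.597 log2 units and put 76.0% on the right side of the filter, so which probe sets were tested is uncertain. Probe sets were tested where at least 2 arrays reached the median of these estimates (6.29). Symbols came from the platform annotation: 34945 probe sets had 1, 932 several and 9160 none. limma 3.58.1 in R 4.3.3 (lmFit, eBayes) fitted time point and vector additively, two-sided (residual degrees of freedom 3, prior 1.2). An added indicator for ASXL1-MT at 24 h left 2. The fit was tested on simulated data. Named genes were all SOCS probe sets, the 2 largest rises and falls of each list at 2 and 24 h, and the 3 genes most correlated with each member. For lists and correlations a gene was read by the probe set of highest estimated level in whole units, with ties by type and name. Alternatives changed the filter, scaling, probe set choice, variance prior and arrays. Members and lists were chosen with earlier results of these data known.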

Additional observations from a re-analysis of the deposited data

How the results depend on the processing

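No SOCS difference that was called changed sign under any alternative, and counts below are probe sets (or genes) called by limma, then SOCS genes. Main counts were 0, 3054, 5802, 2092 and 87 at 2, 6 and 24 h against IL-3, from 2 to 6 h and from 6 to 24 h. Without the filter 0 were called at 6 h (0 SOCS genes, 8479 at an unadjusted p under 0.05), 477 at 24 h (1), 0 from 2 to 6 h (0, 7930 unadjusted) and 0 from 6 to 24 h (6565 unadjusted). With the stricter filter the counts were 19 at 2 h (1), 5784 at 6 h, 5461 from 2 to 6 h, 4214 from 6 to 24 h (3) and 2 for the ASXL1-MT effect at 24 h. With the level-dependent prior they were 13 at 2 h (1), 5153 at 6 h, 4600 from 2 to 6 h and 3176 from 6 to 24 h (2). With 1 probe set per gene they were 3 at 2 h, 3375 at 24 h and 716 from 6 to 24 h, with 2 SOCS genes at 6 h and 0 from 2 to 6 h. With gene means they were 1440 at 6 h, 2435 at 24 h and 1057 from 2 to 6 h, with 1 SOCS gene from 2 to 6 h and 1 from 6 to 24 h. Quantile normalization again left 1 from 6 to 24 h, and ended the 24 h call of Socs2 on 1449109_at (adjusted p = 0.0536).

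With 1 array left out, 0 were called at 6 h (6052 to 8240 unadjusted), 0 to 2121 at 24 h with 0 to 2 SOCS genes, 0 from 2 to 6 h (5894 to 7548 unadjusted) and 0 from 6 to 24 h (4690 to 6397 unadjusted), with 0 SOCS genes at 6 h and from 2 to 6 h. With only the 4 arrays of a pair of time points, 0 were called at 6 h and 0 at 24 h, and 0 SOCS genes (6769 and 8262 unadjusted). These fits have fewer arrays; the cause of the other shifts was not tested. The ASXL1-MT effect at 24 h could not be fitted without either 24 h array. No paired analysis was possible over replicate numbers because each condition has 1 array, and the fit used already compares time points within the cultures. Signal over background was not given, so dim probe sets such as that of Socs1 limit what could be seen.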
